A study of Homo sapiens with 12 samples.

Results

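The 34 genes described here encode the heat shock chaperones of the cytosol and the mitochondria, their main co-chaperones and the transcription factors HSF1 and HSF2. They were chosen by name, and all 34 were found among the 34886 gene symbols of the mRNA table and passed the filter on low counts. The cells were NCI-H446, an established line derived from a human small cell lung carcinoma. They were given either CAPE (caffeic acid phenethyl ester, a compound of bee propolis) at 40 µM for 8 h, or an equal volume of the solvent DMSO (dimethyl sulfoxide). CAPE was itself dissolved in DMSO, so both groups received the solvent, and no untreated cells were compared. Each group had 3 mRNA libraries. Whether these were separate cultures is not in the labels, so p-values reflect only the spread between libraries, which may be technical.

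Heat shock proteins keep other proteins folded. HSP70 binds exposed stretches of a client protein, J proteins (the HSP40 family) deliver the client and trigger ATP hydrolysis, and exchange factors such as the HSP110 proteins release it. HSP90 then finishes the folding of many kinases and receptors with the help of co-chaperones, small heat shock proteins hold clients until they can be refolded, and the mitochondria have their own HSP70, HSP90 and chaperonin. When unfolded proteins accumulate, HSF1 is freed from chaperones and binds heat shock elements, which are inverted repeats of GAA, in the promoters of many of these genes. Several HSP90 and HSP70 genes are transcribed at a high level even without stress, as is common in tumour lines.

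The 5 promoters below show how differently such elements are arranged in genes whose mRNA behaved differently with CAPE: the stress-inducible HSPA1B, the constitutive HSPA8 and the co-chaperone gene CHORDC1, which were lower with CAPE when the library DMSO 3 was left out, SERPINH1, which was higher, and HSPA9, which did not pass. Each runs from 250 bases before to 50 bases after the RefSeq start site on the gene's own strand (GRCh38.p14). Capitals mark every match to GAANNTTC or TTCNNGAA, each of which reads the same on both strands, and overlapping matches run together.
HSPA1B (chr6:31827488-31827787, plus strand): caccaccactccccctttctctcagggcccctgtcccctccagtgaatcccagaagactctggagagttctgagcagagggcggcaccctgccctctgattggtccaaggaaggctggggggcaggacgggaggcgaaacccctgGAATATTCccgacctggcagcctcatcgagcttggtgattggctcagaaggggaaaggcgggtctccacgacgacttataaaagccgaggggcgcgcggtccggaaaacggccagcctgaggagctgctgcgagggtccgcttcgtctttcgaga
HSPA8 (chr11:123062087-123062386, minus strand): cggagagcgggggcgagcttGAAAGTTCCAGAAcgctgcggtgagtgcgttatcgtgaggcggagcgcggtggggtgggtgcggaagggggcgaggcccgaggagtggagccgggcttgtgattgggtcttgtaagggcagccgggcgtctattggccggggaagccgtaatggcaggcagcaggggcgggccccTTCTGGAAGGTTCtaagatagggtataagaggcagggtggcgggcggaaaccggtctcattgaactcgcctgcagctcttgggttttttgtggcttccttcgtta
CHORDC1 (chr11:90223000-90223299, minus strand): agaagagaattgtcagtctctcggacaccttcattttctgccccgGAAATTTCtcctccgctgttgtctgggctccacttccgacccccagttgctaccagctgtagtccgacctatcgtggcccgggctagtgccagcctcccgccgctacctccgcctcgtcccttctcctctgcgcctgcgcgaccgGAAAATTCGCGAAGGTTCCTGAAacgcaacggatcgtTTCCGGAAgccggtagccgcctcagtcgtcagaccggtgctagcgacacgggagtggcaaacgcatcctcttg
SERPINH1 (chr11:75562003-75562302, plus strand): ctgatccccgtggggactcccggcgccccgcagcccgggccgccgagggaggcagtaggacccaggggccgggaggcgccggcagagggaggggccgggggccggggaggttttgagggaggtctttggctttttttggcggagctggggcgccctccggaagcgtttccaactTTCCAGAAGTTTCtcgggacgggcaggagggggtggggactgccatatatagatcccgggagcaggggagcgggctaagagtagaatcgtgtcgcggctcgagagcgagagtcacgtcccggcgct
HSPA9 (chr5:138575352-138575651, minus strand): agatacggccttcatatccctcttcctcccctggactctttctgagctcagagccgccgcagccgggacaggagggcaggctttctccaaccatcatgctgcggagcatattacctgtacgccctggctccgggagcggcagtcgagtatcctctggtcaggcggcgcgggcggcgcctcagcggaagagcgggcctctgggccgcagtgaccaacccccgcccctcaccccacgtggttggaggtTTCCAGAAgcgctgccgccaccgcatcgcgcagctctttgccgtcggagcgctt

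A promoter window was found for 30 of the 34 genes, the exceptions being HSF1, HSPA14, FKBP4 and CRYAB. A match to GAANNTTC or TTCNNGAA, 2 inverted units, was present in 10 of the 30 windows (33.3%), against 3738 of all 27305 promoter windows of the same length (13.7%). A triplet, which is GAANNTTC followed directly by NNGAA or TTCNNGAA followed directly by NNTTC and so contains both shorter motifs, was present in 5 of the 30 (16.7%), against 133 of all 27305 (0.487%). These 5 were HSPA8, DNAJA1, DNAJB6, CHORDC1 and SERPINH1. HSPA8 held 2 such triplets, at both ends of its upstream stretch, CHORDC1 held 3 overlapping ones in a single run, and HSPA1B had only a pair, starting at base -105 from the start site. Among the genes called lower with CAPE without DMSO 3, 7 of 19 windows held a pair and 4 a triplet, and among the 8 that did not pass 2 held a pair and 0 a triplet. Of the 3 called higher, 1 held a pair and a triplet. SERPINH1, HSPA8 and CHORDC1 each carried a triplet. Without DMSO 3 SERPINH1 was called higher and the other 2 lower. With 6 libraries all 3 log2 fold changes were negative (-0.22, -0.96 and -0.12 in that order), and none passed. A part of these elements in the changes was not tested. A match describes the letters of the window only.

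The mRNA libraries held 17569997 to 17993349 estimated counts with CAPE and 17770295 to 20917508 with DMSO, the highest total in DMSO 3. DMSO 3 stood apart, with 2858 of the 13595 genes tested lying below the mean of DMSO 1 and DMSO 2 by 2-fold or more, and 2836 lying above it by as much. Fold changes of the 34 genes are therefore given without DMSO 3 and with all 6 libraries, and no gene of the 34 passed edgeR's test with all 6. The defining neuroendocrine markers NEUROD1, INSM1 and NCAM1 were each under 1 TPM, a count scaled by transcript length and library total, in every library, and of 7 such markers ENO2 and UCHL1 exceeded 1 TPM in all 6. The summed list measured 153 to 161 TPM with CAPE and 42.7 to 49.2 TPM with DMSO. ENO2 alone carried this difference (134, 134 and 144 TPM with CAPE, 31.1, 28.7 and 18.1 TPM with DMSO), while UCHL1 overlapped (15.7 to 20 TPM with CAPE, 17.4 to 24.3 TPM with DMSO). The summed levels of 4 leukocyte markers (1.12 to 2.37 TPM with CAPE, 0.196 to 1 TPM with DMSO) and 3 endothelial markers (1.10 to 3.46 TPM with CAPE, 1.58 to 4.06 TPM with DMSO) were low. The list of 4 fibroblast markers measured 46.9 to 55.7 TPM with CAPE and 13 to 46.6 TPM with DMSO. COL1A1, DCN and LUM were above 1 TPM in every library, and COL1A2 was under 1 TPM in every library. COL1A1 measured 17.7 to 19.5 TPM with CAPE and 2.95 to 10.0 TPM with DMSO, while DCN and LUM overlapped between the groups. The part of these markers in the chaperone results was not tested.

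Chaperone mRNA took a smaller part of the libraries after CAPE. The 34 genes held 1.37%, 1.40% and 1.35% of all counts in the CAPE libraries, against 1.84%, 1.74% and 1.99% in DMSO 1, 2 and 3. Their summed TPM, which corrects for transcript length, was 9112, 9369 and 8931 with CAPE and 12231, 11438 and 10199 with DMSO. Neither measure overlapped between the groups, DMSO 3 included. In bulk RNA, fewer cells with a high level and less RNA per cell cannot be told apart.

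No single gene of the 34 passed with all 6 libraries, and most fell without DMSO 3. In edgeR's quasi-likelihood test with Benjamini-Hochberg adjustment over all 13595 genes, 0 of 34 were higher, where 1.49% of all genes were, and 0 were lower, where 0.456% of all genes were. At an unadjusted p under 0.05 there were 12 of 34 (35.3%), all lower, where 16.1% of all genes reached that level in either direction. DESeq2 on the same libraries and genes called 4 lower (HSPA1A, HSPA1B, HSPA4 and DNAJA1), where 2.89% of all genes were lower, and 0 higher, where 4.63% were. Without DMSO 3, 20 of 34 (58.8%) were lower at an edgeR adjusted p under 0.05, where 20.8% of all 13919 genes tested were lower, and 3 of 34 (8.82%) were higher, where 20.4% of all genes were. The median log2 fold change of the 34 genes was -0.58 with 6 libraries and -0.30 without DMSO 3, beside -0.01 and 0.00346 over all genes tested. In either direction that made 23 of 34 called, where 41.2% of all genes were. CPM, the count relative to a library size scaled with TMM factors, lay below all 3 DMSO libraries in all 3 CAPE libraries for 21 of 34 genes (61.8%), where 20.6% of all genes did so, and above for 2 of 34 (5.88%), where 21.4% did. Against DMSO 1 and DMSO 2 alone the CAPE libraries lay below for 23 of 34 (67.6%), where 30.7% of all genes did so, and above for 4 of 34 (11.8%), where 31.5% did. On TPM, part of the 21 genes that lay below all 3 DMSO libraries in CPM overlapped between the groups. These were HSF1, HSPA2, HSPA4, HSPH1, DNAJA1, DNAJA2, DNAJB6, DNAJC7, HSPD1, HSPE1 and DNAJA3, and the rest of the 21 stayed below. With all 6 libraries weighted by their quality in limma-voom, 20 of 34 were lower and 3 higher at an adjusted p under 0.05, where 19.7% and 21.4% of all genes were.

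**Figure D1:**
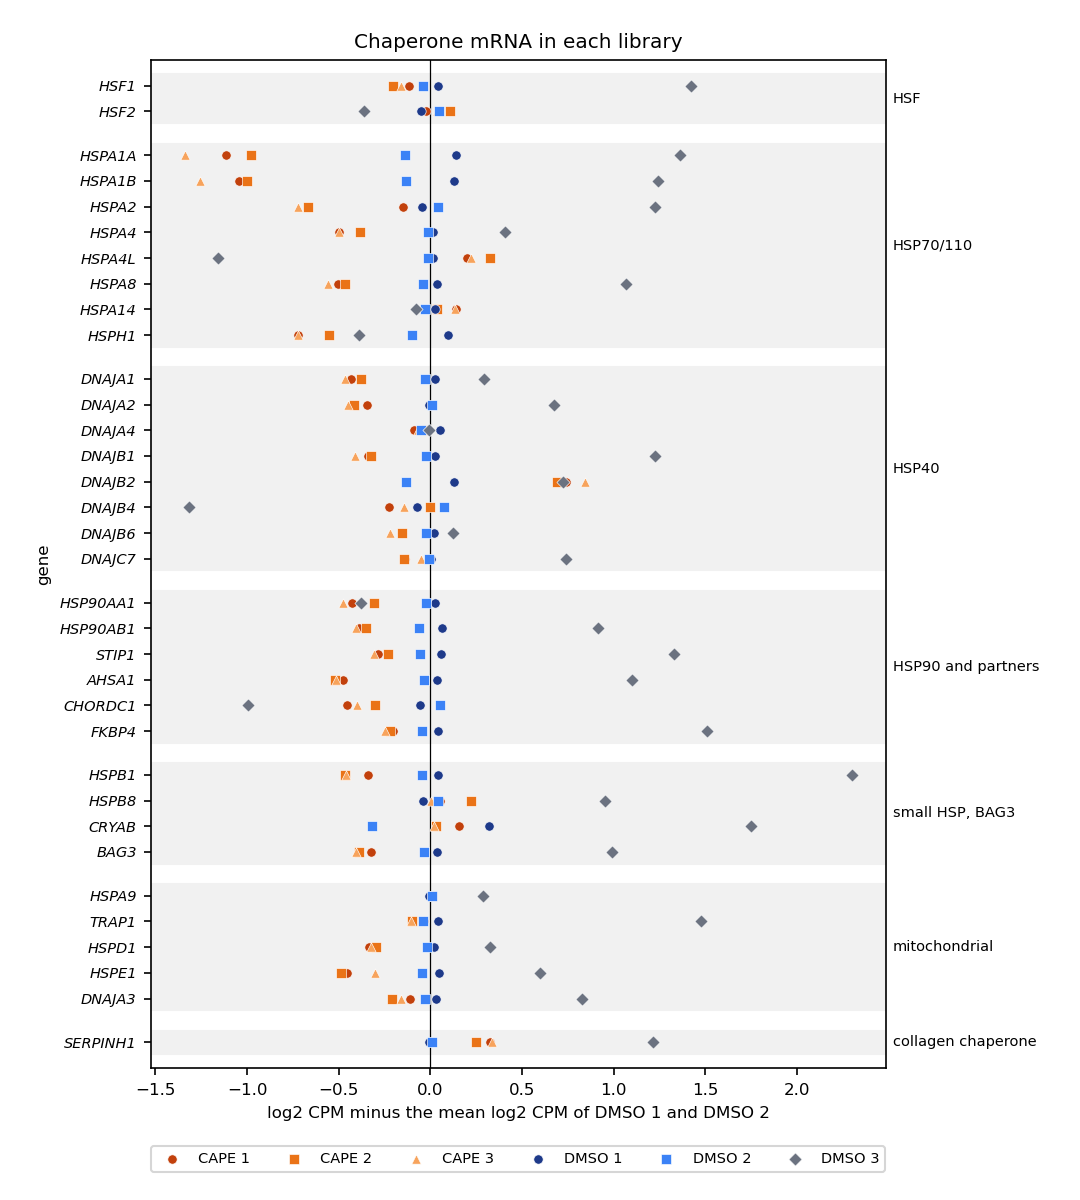
CPM of each gene in each library on the log2 scale, relative to the mean of DMSO 1 and DMSO 2 (0), with the genes ordered by role from top to bottom and 1 point per library. The CAPE points lay close together and mostly left of 0, and DMSO 3 lay right of DMSO 1 and DMSO 2 for 26 of the 34 genes.

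DMSO 3 exceeded the mean of DMSO 1 and DMSO 2 for 26 of the 34 genes, by a median over all 34 of 0.78 on the log2 scale, where the median over all genes tested was 0.003405. The deviation ran from -1.31 in DNAJB4 to 2.30 in HSPB1, and 13 genes were at least 2-fold above and 2 at least 2-fold below. Over the 34 genes it had a Spearman correlation of -0.33 (Pearson -0.38) with relative transcript length, the count divided by TPM, and over all genes tested the Spearman correlation was -0.46. All points share 1 library. The short mRNAs HSPB1 and CRYAB were far above 0, and HSPA4L, the longest of the 34 on this measure, was far below. The order was loose: HSPE1, the shortest, deviated by 0.60, the long FKBP4 by 1.51, and DNAJB4, of middle length, was the lowest. With offsets for relative transcript length, the median 6-library log2 fold change of the 34 genes was -0.53, beside -0.58 without them. Transcript length as a cause of the results was not tested.

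**Figure D2:**
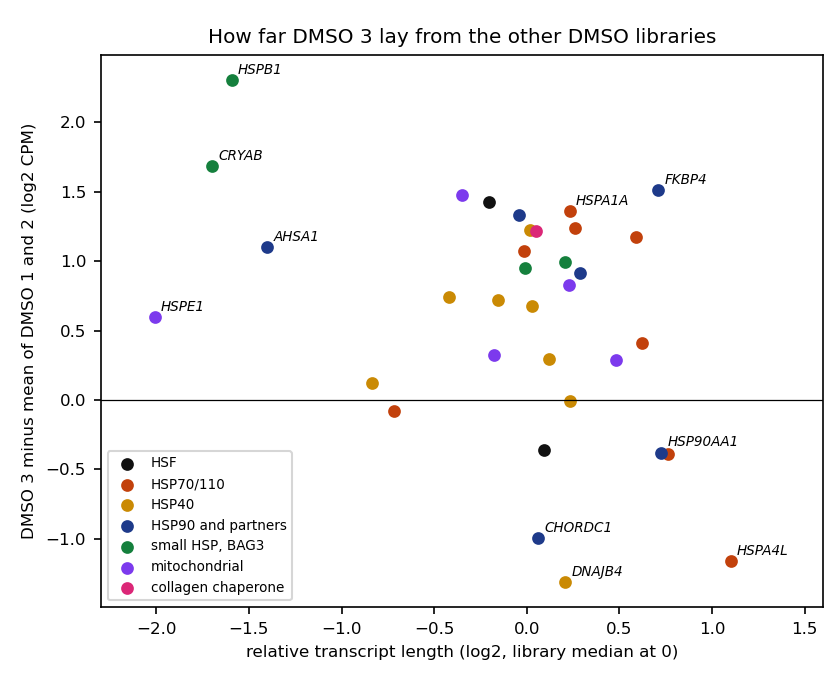
Deviation of DMSO 3 from the mean of DMSO 1 and DMSO 2 (log2 CPM) against relative transcript length (log2, 0 is the library median), 1 point per gene, coloured by role. Most points lie above 0, the highest being HSPB1 at 2.30 and the lowest DNAJB4 at -1.31.

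The regulators came first in the order of roles. HSF1, the main transcription factor of the heat shock response, measured 39.7, 37.5 and 38.6 CPM in the CAPE libraries and 44.3, 41.9 and 116 CPM in DMSO 1, 2 and 3. The CAPE libraries lay below all DMSO libraries, narrowly so for DMSO 1 and DMSO 2. The log2 fold change was -0.16 without DMSO 3 (SE 0.07, 95% interval -0.30 to -0.02, edgeR adjusted p = 0.0606) and -0.80 with 6 libraries (SE 0.42, edgeR adjusted p = 0.351), and neither passed. HSF2, a related factor known from development and proteotoxic stress, measured 20.3, 22.2 and 21.2 CPM with CAPE and 19.9, 21.3 and 16.0 CPM with DMSO, and the groups overlapped. Its log2 fold change without DMSO 3 was 0.04 (SE 0.09, edgeR adjusted p = 0.750), and 0.15 with 6 libraries.

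The largest differences among the 34 genes were in the stress-inducible HSP70 pair. HSPA1A and HSPA1B (chr6:31815543-31817942 and chr6:31827738-31830254, GRCh38) are neighbours that encode the same HSP70 protein, are low in many unstressed cells and are the classical HSF1 targets. HSPA1A measured 394, 433 and 337 CPM with CAPE and 939, 774 and 2188 CPM in DMSO 1, 2 and 3, and HSPA1B 352, 362 and 303 CPM with CAPE and 794, 661 and 1713 CPM with DMSO. Every CAPE library was below every DMSO library for both genes. Without DMSO 3 HSPA1A fell by 1.15 in log2 units (SE 0.08, edgeR adjusted p = 6.67e-08) and HSPA1B fell by 1.11 (SE 0.07, edgeR adjusted p = 1.97e-08). They were the only 2 of the 34 whose fall was at least 2-fold in that fit. With 6 libraries the log2 fold changes were -1.75 and -1.64, and the edgeR adjusted p of 0.131 and 0.124 did not pass.

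Reads of the HSPA1 pair cannot be cleanly assigned to one copy, so the sum is the safer value. HSPA1A and HSPA1B together held 746, 795 and 639 CPM with CAPE and 1733, 1435 and 3902 CPM with DMSO. The sum fell by 1.13 in log2 units without DMSO 3 (SE 0.08, edgeR adjusted p = 5.90e-08), and its log2 fold change with 6 libraries was -1.70 (SE 0.41, edgeR adjusted p = 0.129). In TPM the excess of DMSO 3 was smaller: HSPA1A measured 255, 279 and 217 TPM with CAPE against 607, 503 and 684 TPM with DMSO. On log2(TPM + 1) with limma HSPA1A and HSPA1B passed with all 6 libraries (log2 fold changes -1.25 and -1.16, adjusted p = 0.0319 and 0.0255), the only 2 of the 34 to do so. On that scale 0.169% of all genes were lower and 0.824% higher.

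The other HSP70 and HSP110 genes of the cytosol split. Without DMSO 3, 3 of these 6 were lower, 1 was higher and 2 did not pass, where 20.8% of all genes were lower and 20.4% higher. Over all 8 genes of the role, the HSPA1 pair included, 5 were lower, and the median log2 fold change was -0.50, and -0.78 with 6 libraries. HSPH1, the HSP110 exchange factor and a known HSF1 target, measured 183, 206 and 183 CPM with CAPE and 323, 282 and 231 CPM with DMSO. It fell by 0.67 in log2 units without DMSO 3 (SE 0.06, edgeR adjusted p = 6.52e-07), and unlike most of the 34 genes DMSO 3 lay below the other DMSO libraries here. With 6 libraries its log2 fold change was -0.55 (edgeR adjusted p = 0.224), and with offsets for transcript length HSPH1 was the 1 gene of the 34 that passed as lower (log2 fold change -0.72, edgeR adjusted p = 0.0391), where 0.942% of all genes were lower, and 0 were higher, where 2.05% of all genes were. HSPA8, the constitutive HSC70, measured 1827, 1872 and 1755 CPM with CAPE and 2656, 2518 and 5428 CPM with DMSO, a log2 fold change without DMSO 3 of -0.51 (SE 0.05, edgeR adjusted p = 1.68e-06) and with 6 libraries of -0.96. HSPA4, another HSP110-type exchange factor, fell by 0.46 without DMSO 3 (SE 0.04, edgeR adjusted p = 1.11e-06), and its 6-library log2 fold change was -0.61.

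HSPA4L, also of the HSP110 type, went the other way from its relatives HSPA4 and HSPH1. It measured 171, 187 and 174 CPM with CAPE and 151, 148 and 66.9 CPM in DMSO 1, 2 and 3, so that all CAPE libraries were above all DMSO libraries. Without DMSO 3 it rose by 0.25 in log2 units (SE 0.05, edgeR adjusted p = 9.66e-04), a call that was lost on log2(TPM + 1) (0.17, adjusted p = 0.142). With 6 libraries its log2 fold change was 0.54. HSPA14, a ribosome-associated HSP70, measured 43.1, 40.1 and 42.9 CPM with CAPE and 39.9, 38.4 and 37.0 CPM with DMSO. Its groups did not overlap either, but a log2 fold change of 0.10 (95% interval -0.04 to 0.24) did not pass without DMSO 3, nor did 0.13 with 6 libraries. HSPA2, best known from the testis, was barely expressed, at 0.92 to 1.37 CPM with CAPE and 1.48 to 3.56 CPM with DMSO, with log2 fold changes of -0.49 without DMSO 3 and -1 with 6 libraries.

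**Figure D3:**
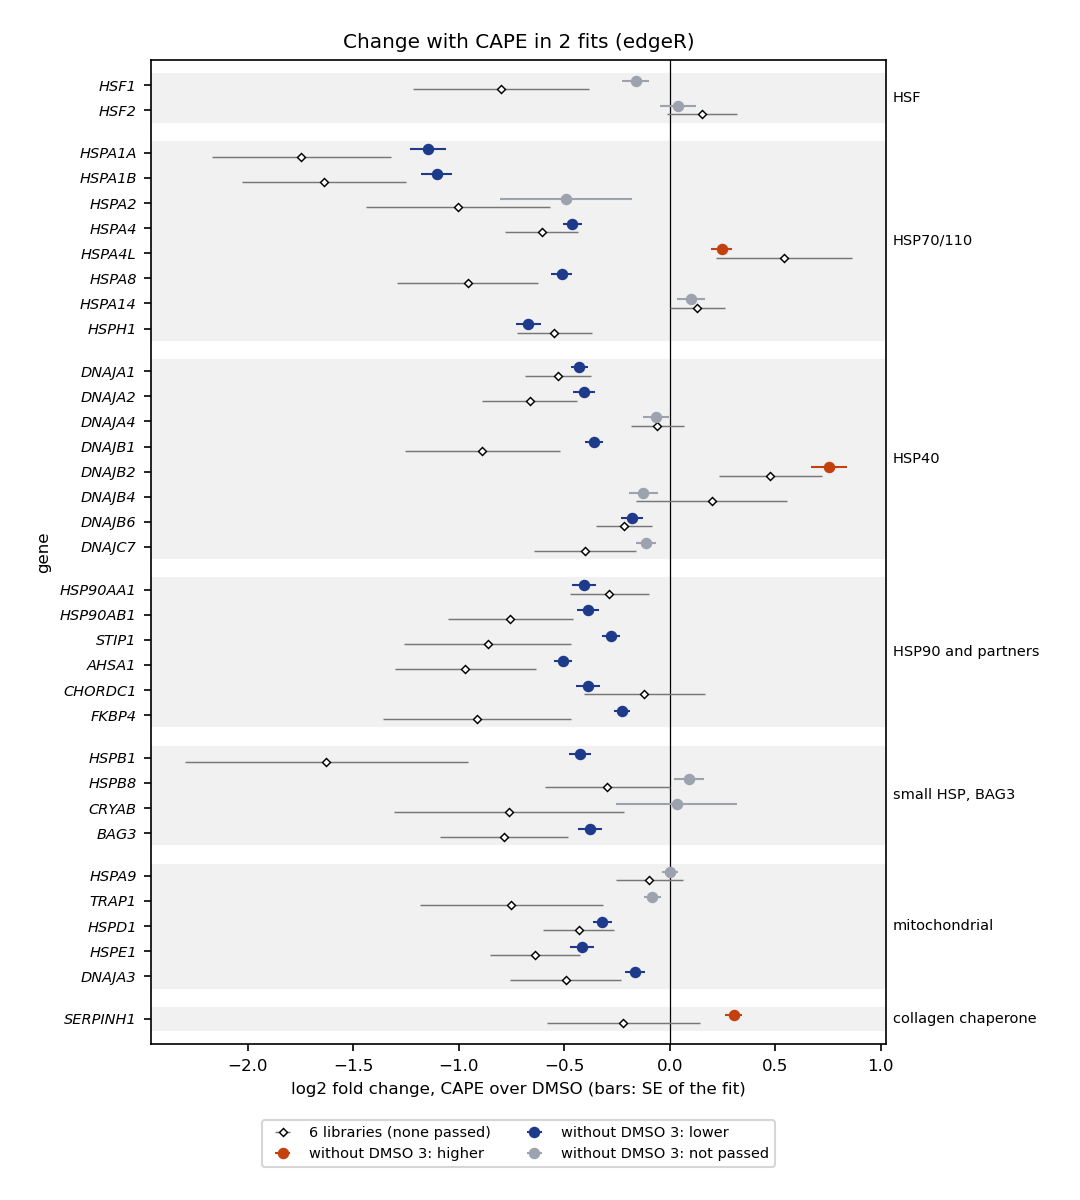
log2 fold change of CAPE over DMSO for each gene, with bars of 1 SE, in the fit with 6 libraries (open diamonds) and without DMSO 3 (filled circles, coloured by call). The HSPA1 pair lies furthest left without DMSO 3, at -1.15 and -1.11, and the called rises are HSPA4L, DNAJB2 and SERPINH1.

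The 8 J proteins of the cytosol hand clients to HSP70. Without DMSO 3, 4 were lower, 1 was higher and 3 did not pass, where 20.8% of all genes were lower and 20.4% higher. The median log2 fold change of the 8 was -0.15 (-0.31 with 6 libraries). DNAJA1 measured 365, 379 and 356 CPM with CAPE and 502, 483 and 604 CPM with DMSO, and without DMSO 3 it fell by 0.43 in log2 units (SE 0.04, edgeR adjusted p = 9.33e-07). DNAJB1, the classical stress-inducible J protein that works with HSPA1A, measured 188, 190 and 179 CPM with CAPE and 242, 233 and 556 CPM with DMSO. Its fall without DMSO 3 was 0.36 on the log2 scale (log2 fold change -0.36, SE 0.04, edgeR adjusted p = 1.17e-05), smaller than that of HSPA1A and HSPA1B. DNAJA2, a relative of DNAJA1, measured 89.0, 84.9 and 82.9 CPM with CAPE and 112, 114 and 181 CPM with DMSO. In CPM every CAPE library was below every DMSO library for these 3 genes. On TPM that held for DNAJB1 only. DMSO 3 measured 200 TPM in DNAJA1, where CAPE gave 251 to 265 TPM, and 63.2 TPM in DNAJA2, where CAPE gave 58.7 to 66.2 TPM. The 6-library log2 fold changes were -0.53 in DNAJA1, -0.89 in DNAJB1 and -0.66 in DNAJA2. Without DMSO 3 DNAJA2 was at -0.41 (edgeR adjusted p = 1.54e-05).

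DNAJB2, a J protein enriched in neurons that directs clients to the proteasome, was the exception. It measured 40.1, 38.7 and 43.1 CPM with CAPE and 26.2, 21.9 and 39.5 CPM in DMSO 1, 2 and 3. The CAPE libraries were clearly above DMSO 1 and DMSO 2, while DMSO 3 lay among them. Without DMSO 3 DNAJB2 rose by 0.75 in log2 units (SE 0.09, edgeR adjusted p = 6.25e-06), the largest rise of the 34 genes, and with 6 libraries the value was 0.48 (edgeR adjusted p = 0.349). In TPM, DNAJB2 measured 33.7, 39.4 and 37.4 with CAPE and 21.3, 17.7 and 16.7 with DMSO, with no overlap. On log2(TPM + 1) with 6 libraries its value was 0.95 (limma adjusted p = 0.113), where the median over all genes was 0.31. DNAJB6, which suppresses aggregation, fell by 0.18 without DMSO 3 (edgeR adjusted p = 0.0104), but on log2(TPM + 1) its adjusted p was 0.290. Its 6-library value was -0.22. DNAJA4, DNAJB4 and DNAJC7 did not pass, with log2 fold changes without DMSO 3 of -0.07, -0.13 and -0.11 and 95% intervals that together ran from -0.27 to 0.06. The 6-library values were -0.06, 0.20 and -0.40, with the sign of DNAJB4 turned.

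HSP90 and its partners were the role in which every gene was called without DMSO 3. All 6 were lower, where 20.8% of all genes were, with log2 fold changes of -0.51 to -0.23 and a median of -0.39. With 6 libraries the range was -0.97 to -0.12 (median -0.81) and none passed. AHSA1, the activator of the HSP90 ATPase, measured 143, 138 and 139 CPM with CAPE and 203, 193 and 425 CPM with DMSO, and without DMSO 3 it fell by 0.51 in log2 units (SE 0.04, edgeR adjusted p = 4.18e-07). HSP90AB1, the constitutive HSP90, measured 1926, 1980 and 1909 CPM with CAPE and 2640, 2417 and 4761 CPM with DMSO. The inducible HSP90AA1 measured 2368, 2572 and 2292 CPM with CAPE and 3245, 3131 and 2450 CPM with DMSO. DMSO 3 was thus high for HSP90AB1 and within the CAPE range for HSP90AA1.

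Without DMSO 3 both HSP90 genes fell by close amounts, HSP90AB1 by 0.39 (log2 fold change -0.39, SE 0.05, edgeR adjusted p = 3.46e-05) and HSP90AA1 by 0.41 (log2 fold change -0.41, SE 0.06, edgeR adjusted p = 3.89e-05). CHORDC1, an HSP90 partner that senses stress, had a log2 fold change of -0.39. STIP1, which bridges HSP70 and HSP90, and FKBP4, a co-chaperone of steroid receptors, had log2 fold changes of -0.28 and -0.23, the smallest of the group without DMSO 3. With 6 libraries AHSA1 again had the most negative value, at -0.97, but the order of the others changed. FKBP4 was at -0.91, STIP1 at -0.86 and HSP90AB1 at -0.76, while HSP90AA1 was at -0.29 and CHORDC1 at -0.12. CHORDC1 and HSP90AA1 were the 2 of this group in which DMSO 3 lay below DMSO 1 and DMSO 2.

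Of the small heat shock proteins and BAG3, 2 of 4 were lower without DMSO 3, where 20.8% of all genes were. The other 2 did not pass. The median log2 fold change of the 4 was -0.17, and -0.77 with 6 libraries. HSPB1 (HSP27), the main small heat shock protein of many epithelial tumours, measured 145, 133 and 133 CPM with CAPE, against 189, 177 and 902 CPM in DMSO 1, 2 and 3. Its DMSO 3 value was the most extreme of all 34 genes. Without DMSO 3 HSPB1 fell by 0.42 in log2 units (SE 0.05, edgeR adjusted p = 1.05e-05), and with 6 libraries the log2 fold change of -1.63 had an SE of 0.67 (edgeR adjusted p = 0.311). BAG3, an HSP70 co-chaperone of selective autophagy, measured 67.1, 64.2 and 63.5 CPM with CAPE and 86.2, 82.1 and 167 CPM with DMSO, and it fell by 0.38 without DMSO 3 (log2 fold change -0.38, SE 0.05, edgeR adjusted p = 6.51e-05), with a 6-library value of -0.79.

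HSPB8, the partner of BAG3, did not share its direction in that fit. It measured 49.2, 55.4 and 47.7 CPM with CAPE and 46.2, 48.9 and 92 CPM with DMSO, with a log2 fold change without DMSO 3 of 0.09 (95% interval -0.06 to 0.25) and with 6 libraries of -0.30. CRYAB, the alpha-B crystallin of lens and muscle, was barely expressed, at 1.74, 1.6 and 1.59 CPM with CAPE and 1.95, 1.25 and 5.27 CPM with DMSO. Its 95% interval without DMSO 3, -0.58 to 0.64 on the log2 scale, shows that a moderate change was not detectable at this level, and the 6-library value of -0.76 had an SE of 0.54.

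The mitochondrial chaperones were not uniform. Without DMSO 3, 3 of 5 were lower, where 20.8% of all genes were, and 2 did not pass. The median log2 fold change of the 5 was -0.16 (-0.49 with 6 libraries). The chaperonin HSPD1 (HSP60) and its lid HSPE1 (HSP10) lie back to back at chr2:197486584-197500274 and chr2:197500379-197503449. HSPD1 measured 1094, 1124 and 1103 CPM with CAPE and 1397, 1358 and 1724 CPM with DMSO, and HSPE1 113, 110 and 125 CPM with CAPE and 160, 150 and 234 CPM with DMSO. In CPM every CAPE library lay below every DMSO library for both genes. On TPM that held against DMSO 1 and DMSO 2 only, and DMSO 3 was the lowest library. HSPD1 measured 557 TPM in DMSO 3 and 940 to 1006 TPM with CAPE, and HSPE1 304 TPM and 349 to 389 TPM. Without DMSO 3 HSPD1 fell by 0.32 in log2 units (SE 0.04, edgeR adjusted p = 4.84e-05) and HSPE1 by 0.42 (log2 fold change -0.42, SE 0.06, edgeR adjusted p = 3.97e-05). With 6 libraries they were at -0.43 and -0.64.

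HSPA9 (mortalin), the HSP70 of the mitochondrial matrix and its import motor, measured 702, 704 and 702 CPM with CAPE and 695, 704 and 854 CPM with DMSO. Without DMSO 3 the log2 fold change was 0.00245 (SE 0.04, 95% interval -0.08 to 0.08), so falls of the size seen in HSPD1 and HSPE1 lay outside its interval. On log2(TPM + 1) without DMSO 3, HSPA9 was called higher instead (0.16, adjusted p = 0.0340). With 6 libraries its log2 fold change was -0.10. DNAJA3 (TID1), the J protein of mortalin, measured 143, 134 and 138 CPM with CAPE and 158, 151 and 275 CPM with DMSO. Its fall of 0.16 without DMSO 3 (log2 fold change -0.16, edgeR adjusted p = 0.0124) was lost on log2(TPM + 1) (adjusted p = 0.0892), and its 6-library value was -0.49. TRAP1, the mitochondrial HSP90, did not pass (log2 fold change -0.08, 95% interval -0.17 to 0.01 without DMSO 3, and -0.75 with 6 libraries).

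SERPINH1 (HSP47) is an HSF1 target that folds collagen in the endoplasmic reticulum and stands apart from the other 33 genes by its location. It measured 358, 339 and 361 CPM with CAPE and 284, 287 and 662 CPM in DMSO 1, 2 and 3, with DMSO 3 above all CAPE libraries. Without DMSO 3 it rose by 0.30 in log2 units (SE 0.04, edgeR adjusted p = 3.92e-05). With 6 libraries the sign turned in edgeR's test (-0.22, SE 0.36, edgeR adjusted p = 0.714). Other fits that keep all 6 differed in sign. The value was -0.25 in DESeq2 (adjusted p = 0.712) and -0.19 with offsets for transcript length (edgeR adjusted p = 0.730). It was 0.24 on log2(TPM + 1) with limma (adjusted p = 0.449) and 0.30 with sample quality weights in limma-voom (adjusted p = 0.00100). In TPM, SERPINH1 measured 262, 245 and 262 with CAPE and 207, 210 and 236 with DMSO, where the groups did not overlap. On log2(TPM + 1) with 6 libraries the median over all genes was itself 0.31, above the 0.24 of SERPINH1.

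Levels were compared between genes on the TPM scale. HSPA8 was the most abundant of the 34 in both groups (1405 ± 49.3 TPM with CAPE, 2010 ± 127 TPM with DMSO, SD, n = 3), followed by HSP90AB1 (1201 ± 19.9 TPM with CAPE, 1525 ± 105 TPM with DMSO). HSP90AA1 ranked 3 and HSPD1 ranked 4 in both, but their DMSO levels of 1160 ± 534 and 971 ± 358 TPM spread too widely to order them. HSPA1A ranked 13 with CAPE and 6 with DMSO, and HSPA1B 14 with CAPE and 8 with DMSO. HSPA9 ranked 5 with CAPE and 12 with DMSO. The lowest 2 in both groups were CRYAB and HSPA2, at under 6 TPM in every library.

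The summed TPM of the 34 genes averaged 9137 with CAPE and 11834 in DMSO 1 and DMSO 2, a difference of -2697. The 4 most abundant genes made up -1500 of it, and HSPA1A and HSPA1B another -552. Against the mean of all 3 DMSO libraries the difference was -2152, with -984 from those 4 genes and -616 from the HSPA1 pair, and HSP90AA1 and HSPD1 gave -53.5 and -1.96 of it. By role, the cytosolic HSP70 and HSP110 genes summed to 2197, 2295 and 2082 TPM with CAPE and to 3574, 3171 and 3509 TPM in DMSO 1, 2 and 3, with no overlap. HSP90 and its partners summed to 3226, 3347 and 3183 TPM with CAPE and 4344, 4118 and 3176 TPM with DMSO, so DMSO 3 fell just under the CAPE libraries. The mitochondrial genes summed to 2126, 2194 and 2143 TPM with CAPE, and to 2508 and 2405 TPM in DMSO 1 and 2 but 1482 TPM in DMSO 3. J proteins followed the mitochondrial pattern, with 830 to 852 TPM with CAPE and 662 to 1019 TPM with DMSO.

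**Figure D4:**
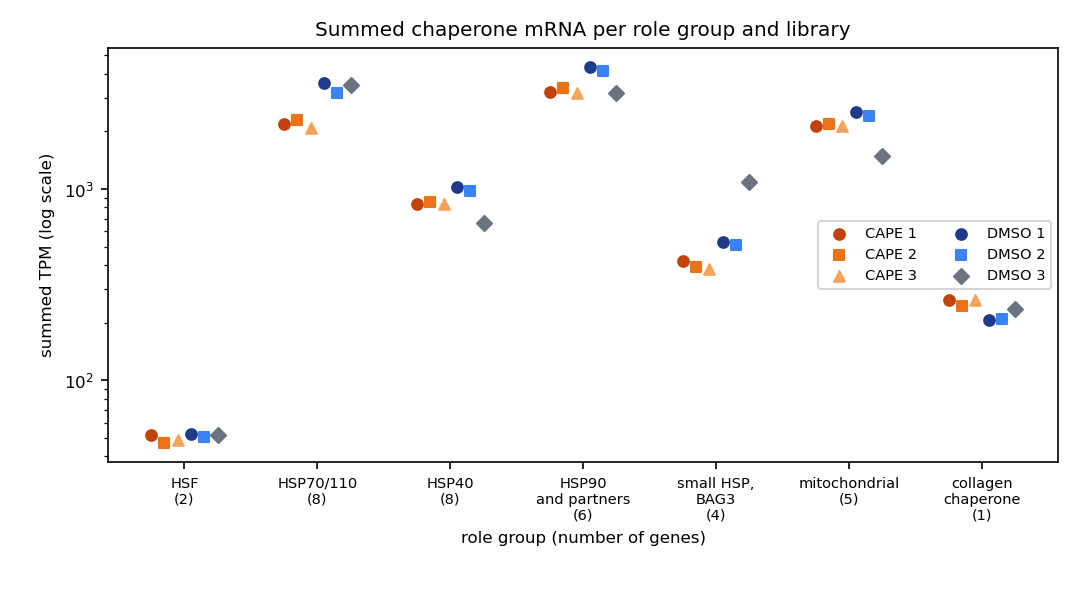
Summed TPM of each role group (number of genes in brackets) in each library, on a log axis. CAPE libraries lie below all DMSO libraries for the HSP70 and HSP110 group and for the small heat shock proteins with BAG3, while DMSO 3 lies below the CAPE libraries for J proteins, HSP90 and mitochondrial genes.

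Ratios of related genes within a library do not depend on its total. The log2 ratio of HSPA1B to HSPA8 was -2.66, -2.67 and -2.82 with CAPE and -2.03, -2.15 and -2 in DMSO 1, 2 and 3, so the inducible HSP70 was lower relative to the constitutive one in every CAPE library. This was 1 of the 2 ratios of 8 examined whose groups did not overlap, and DMSO 3 lay close to the other DMSO libraries in it. The other was HSPA4L to HSPA4, at -0.89, -0.87 and -1.02 with CAPE and -1.45, -1.48 and -3.48 with DMSO. The ratio of HSP90AA1 to HSP90AB1 was -0.14, -0.05 and -0.17 with CAPE and -0.14, -0.06 and -1.40 with DMSO, overlapping between the groups. HSPE1 to HSPD1 also overlapped (-1.44 to -1.30 with CAPE, -1.36 to -0.87 with DMSO). HSPH1 to HSPA4 was -0.64 to -0.40 with CAPE, below the -0.07 and -0.28 of DMSO 1 and 2 but above the -1.29 of DMSO 3. These ratios are a description and were not tested.

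**Figure D5:**
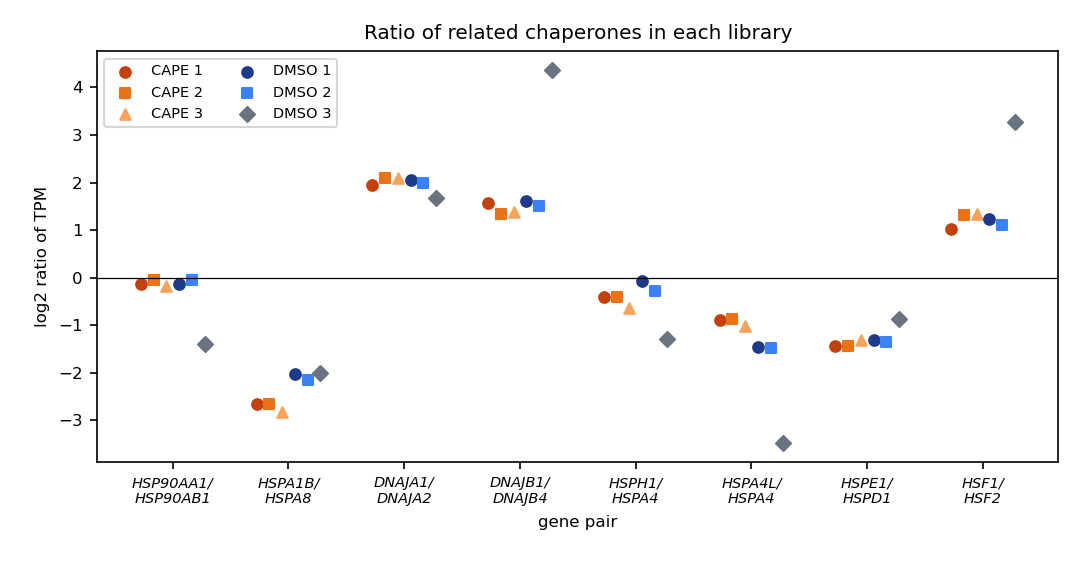
log2 ratio of TPM between related chaperone genes in each library, 1 point per library. The CAPE libraries lie below all DMSO libraries for HSPA1B/HSPA8 and above them for HSPA4L/HSPA4, and overlap with them for the other 6 ratios.

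A wider list of 55 other chaperone and co-chaperone genes was read from the same fits, and 51 passed the filter on low counts (HSPB2, HSPB3, HSPB6 and HSPB7 did not). With 6 libraries 0 of the 51 passed in either direction. Without DMSO 3, 26 were lower (51.0%, where 20.8% of all genes were) and 8 higher (15.7%, where 20.4% of all genes were), with a median log2 fold change of -0.17, and -0.50 with 6 libraries. All 8 subunits of the cytosolic chaperonin TRiC, which folds actin and tubulin, were lower without DMSO 3, with a median log2 fold change of -0.32 (-0.75 with 6 libraries) and with CCT2 (-0.45), CCT6A (-0.39) and CCT4 (-0.38) among the 4 lower genes with the smallest p. FKBP5, an HSP90 co-chaperone induced by glucocorticoids, was the other (-0.51, edgeR adjusted p = 1.72e-07). Of 6 prefoldin subunits, which deliver clients to TRiC, 4 were lower, and of the 8 other HSP90 co-chaperones 5 were.

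The rises of the wider list lay elsewhere. HSPA13, an HSP70 relative of microsomes, had the smallest p, with a mean of 199 CPM with CAPE, against 115 CPM in DMSO 1 and 2 and 52.4 CPM in DMSO 3 (log2 fold change without DMSO 3 0.78, SE 0.06, edgeR adjusted p = 6.70e-08). Of 9 further mitochondrial genes 3 were higher, where 20.4% of all genes were, and 2 were lower, where 20.8% were. Those higher included the protease LONP1 (0.45, edgeR adjusted p = 6.29e-07) and GRPEL2, an exchange factor of mortalin (0.41, edgeR adjusted p = 8.68e-05). DNAJC5, the cysteine string protein of secretory vesicles, rose by 0.34 (edgeR adjusted p = 9.09e-05). LONP1 measured 595 CPM in DMSO 3, above its CAPE mean of 298 CPM, and its sign turned with 6 libraries (-0.20, edgeR adjusted p = 0.775).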

How the data were processed

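The authors deposited estimated counts per gene symbol, whole numbers as deposited, and TPM values, made with bcl2fastq and kallisto 0.46.1 against GRCh38, per the submitters' processing notes. Neither the annotation release nor the step from transcripts to genes is given in the sources used here. Kallisto divides reads shared by near-identical copies such as HSPA1A and HSPA1B by estimate.

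Genes with low counts were removed by filterByExpr of edgeR, TMM factors were applied (0.699 in DMSO 3, 1.07 to 1.09 in the others) and groups were compared by the quasi-likelihood F test with the treatment as the only term (R 4.3.3, edgeR 4.0.16), with Benjamini-Hochberg adjustment over all genes tested and a threshold of 0.05. The fit was repeated without DMSO 3. The SE is the log2 fold change divided by the square root of F. Alternatives used DESeq2 1.42.0, limma 3.58.1 on log2(TPM + 1) and log2(TPM + 0.1), voom with sample quality weights, RLE factors, no filter, offsets smoothed on relative transcript length, the HSPA1 pair summed, a replicate block and each library left out. The code was tested on simulated data. The genes, lists and tests were chosen with earlier results of these data known. All 34 genes are named. Values per library were given for the HSF genes, the HSPA1 pair and up to 3 genes per direction and role with the smallest p without DMSO 3, and up to 4 per direction of the wider list were named. Values per library of HSPA8, HSPA14, HSPB8, CRYAB and HSPA9 were added after they were seen. The miRNA libraries were not used here. One marker of the neuroendocrine list is not reported here and was left out of its sum.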

Additional observations from a re-analysis of the deposited data

How the results depend on the processing

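Without DMSO 3, over the 14 alternatives tried, 18 of the 34 genes were lower and 2 higher in every alternative that gave a value for them. Alternatives that kept both DMSO 1 and DMSO 2 called 9.92% to 22% of all genes lower and 11.9% to 20.5% higher. Among the 34 genes in them, the calls lower numbered 18 to 21. Those higher numbered 3 each time, but HSPA4L was among them in 12 of the 14 and HSPA9 took its place on TPM. Fits left with a single DMSO library assumed that it varies like the others, so their counts are not given. HSPA4L, DNAJB6 and DNAJA3 lost their calls on TPM, and DNAJB6 and DNAJA3 in some of the fits with 1 library fewer.

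With 6 libraries the count of genes called lower was 0, and it became 4 with DESeq2 (2.89% of all genes were lower), 2 with limma on log2(TPM + 1) (0.169%), 2 on log2(TPM + 0.1) (0.14%), 1 with length offsets (HSPH1, 0.942%) and 20 with sample quality weights (19.7%), which also called 3 higher (21.4%). Leaving out 1 library gave 0 to 20 lower and 0 to 3 higher, and only the fit without DMSO 3 gave any. In the other 5 of these fits at most 0.115% of all genes were higher and 0.0072% lower. No pairing by replicate number was seen (correlations of same-numbered deviations -0.19, 0.14 and -0.01, and no CAPE library correlated best with its own number). The deviations were taken from group means, which DMSO 3 shifts for all DMSO libraries, so these correlations cannot decide whether the libraries were paired. With a replicate block 0 of all 13595 genes passed with 6 libraries, the 34 among them, and without DMSO 3, 21 of 34 were lower (18.4% of all genes) and 3 higher (17.7%).

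Signs that turned were these. TPM moved the median of all genes in the 6-library comparison to 0.31 (pseudocount 1) and 0.40 (pseudocount 0.1). On log2(TPM + 1) the 6-library log2 fold changes became 0.38 in DNAJA4, 0.31 in DNAJB6, 0.0406 in DNAJC7, 0.0680 in HSP90AA1, 0.23 in CHORDC1, 0.12 in HSPB8, 0.46 in HSPA9, 0.0776 in HSPD1 and 0.24 in SERPINH1, with medians of 0.12 for the regulators and 0.17 for J proteins. On log2(TPM + 0.1) they became 0.39, 0.31, 0.0409, 0.0682, 0.24, 0.13, 0.46, 0.0777 and 0.24 in the same order, with medians of 0.14 and 0.18. With sample quality weights they became -0.11 in DNAJB4, 0.0871 in HSPB8, 0.0585 in CRYAB, 0.00497 in HSPA9 and 0.30 in SERPINH1. With 1 library left out of the 6, CHORDC1 ran from -0.39 to 0.0603, DNAJB4 from -0.13 to 0.44, HSPB8 from -0.48 to 0.0903, CRYAB from -1.13 to 0.0322, HSPA9 from -0.16 to 0.00245 and SERPINH1 from -0.44 to 0.30. Without DMSO 3 the values near 0 turned: HSF2 to -0.0941 (pseudocount 1) and -0.10 (0.1), CRYAB to -0.0383 and -0.0400, and HSPA9 to -0.00439 with no filter and -0.00741 with length offsets. With 1 more library left out HSF2 ran from -0.0128 to 0.0862, HSPA9 from -0.0101 to 0.00970 and CRYAB from -0.25 to 0.38. The cause of these turns was not tested.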
